A study of Mus musculus with 160 samples.

Results

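The genes described here are those that encode the constant parts of antibodies and the 2 partners that carry secretory IgA to the gut lumen, namely the heavy-chain constant genes Igha, Ighm, Ighd, Ighg1, Ighg2b, Ighg2c and Ighg3, the kappa light-chain constant gene Igkc, the joining-chain gene Jchain and the polymeric immunoglobulin receptor gene Pigr. They were chosen by name, and 9 of the 10 were matched among the 39179 Ensembl genes counted in 160 mouse distal colon libraries. Ighd was not analysed here.

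The libraries came from 4 knockout lines, each compared with wild-type controls, in a dextran sulfate sodium (DSS) study of colitis, in which a sulfated polymer in the drinking water injures the colonic epithelium. The Nckap1l line (the gene is also called HEM1) had 15 wild-type (WT) and 16 homozygous knockout (KO) libraries, the Dock2 line 24 and 18, the Gpsm3 line 20 and 20, and the Dok3 line 21 and 26. DSS was given for 5 days at a labelled dose of 3% for the Dock2 and Gpsm3 lines and 3.5% for the Dok3 line. None is labelled for Nckap1l, for which the study's methods give a dose slightly under 3%. By the same methods a first round of Dok3 animals had less than 3.5%. Tissue was taken on day 10, or day 12 for Nckap1l. Which animals drank DSS is not given in the labels, so treated and untreated animals of a genotype stand together throughout. The Nckap1l, Dock2 and Gpsm3 lines were labelled C57BL6/J and the Dok3 line 129. The knockouts were described as homozygous, with no restriction to B cells named, and the RNA left of each gene is given below. The animals were young adults bred from heterozygous parents, male in the Gpsm3 and Dok3 lines, and of both sexes in the others, with 12 females among the Nckap1l and 20 among the Dock2 animals.

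Plasma cells of the gut lamina propria secrete mostly IgA, as dimers of alpha heavy chains (Igha) with light chains (Igkc for kappa) held together by the joining chain (Jchain). Epithelial cells take up these dimers at their base through the receptor Pigr and release them at the lumen, with part of the receptor still bound. Naive B cells instead carry IgM (Ighm) and IgD on their surface, and switch recombination in an activated B cell replaces the mu gene with a gamma or alpha gene, so that the heavy-chain gene a cell transcribes tells its class.

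The 6 heavy-chain genes matched lie on the minus strand of chromosome 12 (GRCm38, GENCODE annotation), from Ighm at chr12:113418558-113422730 through Ighg3 at chr12:113356224-113361232, Ighg1 at chr12:113325240-113330523, Ighg2b at chr12:113302965-113307933 and Ighg2c at chr12:113285325-113288932 to Igha at chr12:113254830-113260236. Igkc is a single exon at chr6:70726435-70726966 on the plus strand, Jchain lies at chr5:88519809-88527891 on the minus strand, and Pigr at chr1:130826684-130852249 on the plus strand. No other annotated gene overlapped any of the 9. The first 60 coding-strand bases of exon 1, the first constant domain, are shown because isotype shares rest on reads being assigned among these related genes. They were read 5′ to 3′ from the GRCm38 genome, and capitals in the 3 IgG sequences below Ighg1 mark bases that differ from Ighg1.
Igha: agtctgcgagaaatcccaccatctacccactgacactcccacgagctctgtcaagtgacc
Ighm: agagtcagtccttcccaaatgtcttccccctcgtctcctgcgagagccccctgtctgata
Ighg1: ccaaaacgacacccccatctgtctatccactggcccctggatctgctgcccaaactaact
Ighg2b: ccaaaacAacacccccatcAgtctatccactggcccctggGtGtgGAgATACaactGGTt
Ighg2c: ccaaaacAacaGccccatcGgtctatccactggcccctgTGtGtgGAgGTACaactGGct
Ighg3: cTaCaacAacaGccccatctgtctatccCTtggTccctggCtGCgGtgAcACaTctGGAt
The IgG genes are close copies of each other. Over the 291 positions of exon 1, Ighg1 was identical to Ighg2b at 88.3%, to Ighg2c at 88% and to Ighg3 at 79%. No 100-base window, the read length of these libraries, of any immunoglobulin constant gene or of Jchain occurred in an annotated transcript of another gene, and for Pigr 10 of 3926 windows did (0.255%). This holds for reads without mismatches to the reference, which is the C57BL/6 genome.

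The IgG genes differ most in the hinge, the flexible link whose cysteines join the heavy chains. Exon 2 of each IgG gene is shown whole, from the same genome and strand, with its in-frame cysteine codons in capitals.
Ighg1: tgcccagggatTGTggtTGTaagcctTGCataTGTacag
Ighg2b: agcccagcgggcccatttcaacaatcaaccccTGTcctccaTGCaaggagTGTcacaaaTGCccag
Ighg2c: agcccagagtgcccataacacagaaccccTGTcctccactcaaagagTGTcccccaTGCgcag
Ighg3: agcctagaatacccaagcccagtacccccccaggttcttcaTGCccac
The hinge exon was 39 bases long in Ighg1, 66 in Ighg2b, 63 in Ighg2c and 48 in Ighg3.

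RNA was measured by ribosomal-depleted, stranded sequencing of 1 × 100 bases, and each library held between 4344988 and 19993833 counts on genes (median 15989626), with 8 libraries under 10000000. At these totals 3 counts, taken as the floor of detection, were 0.15 to 0.69 CPM (counts per 1000000 counts on genes). CPM is the unit of all levels below unless another is named. For the members and the marker lists the totals were scaled by TMM, edgeR's normalization. The floor and the levels of the knocked-out genes used totals without it. Immunoglobulin and joining-chain genes together took from 0.000715% to 1.07% of the counts of a library. The knocked-out gene was lower in the KO libraries of the Gpsm3 line (median 0.556 against 3.15 CPM, log2 change -2.06, edgeR adjusted p = 1e-04). Its difference did not pass edgeR's test in the Nckap1l line (14.8 against 27.6 CPM, adjusted p = 1.00), the Dock2 line (22.4 against 35.7 CPM, adjusted p = 0.21) or the Dok3 line (3.30 against 3.67 CPM, adjusted p = 1.00). For these 3 lines, and for Dok3 above all, KO therefore means a library labelled homozygous knockout. In 5 libraries of the Dok3 line the sex-linked genes did not match the label, and some libraries of every line held skin or striated muscle RNA, with summed skin markers from 7.44 to 14691 CPM. Nckap1l WT replicate 8 held the highest level in the series of 7 of the 9 genes, and its levels, shares, slopes and correlations in the Nckap1l line are given below also without it.

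Igha ranged from 0.255 to 3816 CPM over the 160 libraries. In the Nckap1l line the WT libraries ran from 7.11 CPM through a median of 38.4 to 3816 CPM, and the KO libraries from 0.255 through 3.601 to 344 CPM. In the Dock2 line the WT libraries ran from 2.37 through 138 to 1051 CPM and the KO libraries from 5.12 through 29.2 to 435 CPM. The KO median thus stood below the WT median in both lines, with wide overlap. In the Gpsm3 line the WT libraries ran from 4.604 through 108 to 552 CPM and the KO libraries from 13.7 through 163 to 910 CPM. In the Dok3 line the WT libraries ran from 18.7 through 533 to 2139 CPM and those labelled KO from 16.1 through 662 to 1895 CPM. In these lines the genotypes covered nearly the same range, and both Dok3 medians stood above the medians of the other 6 groups. Of the 12 libraries with the fewest Igha counts, 9 were Nckap1l KO libraries, down to 4 counts in replicate 11, a library that still held 55130 counts of Pigr.

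**Figure D1:**
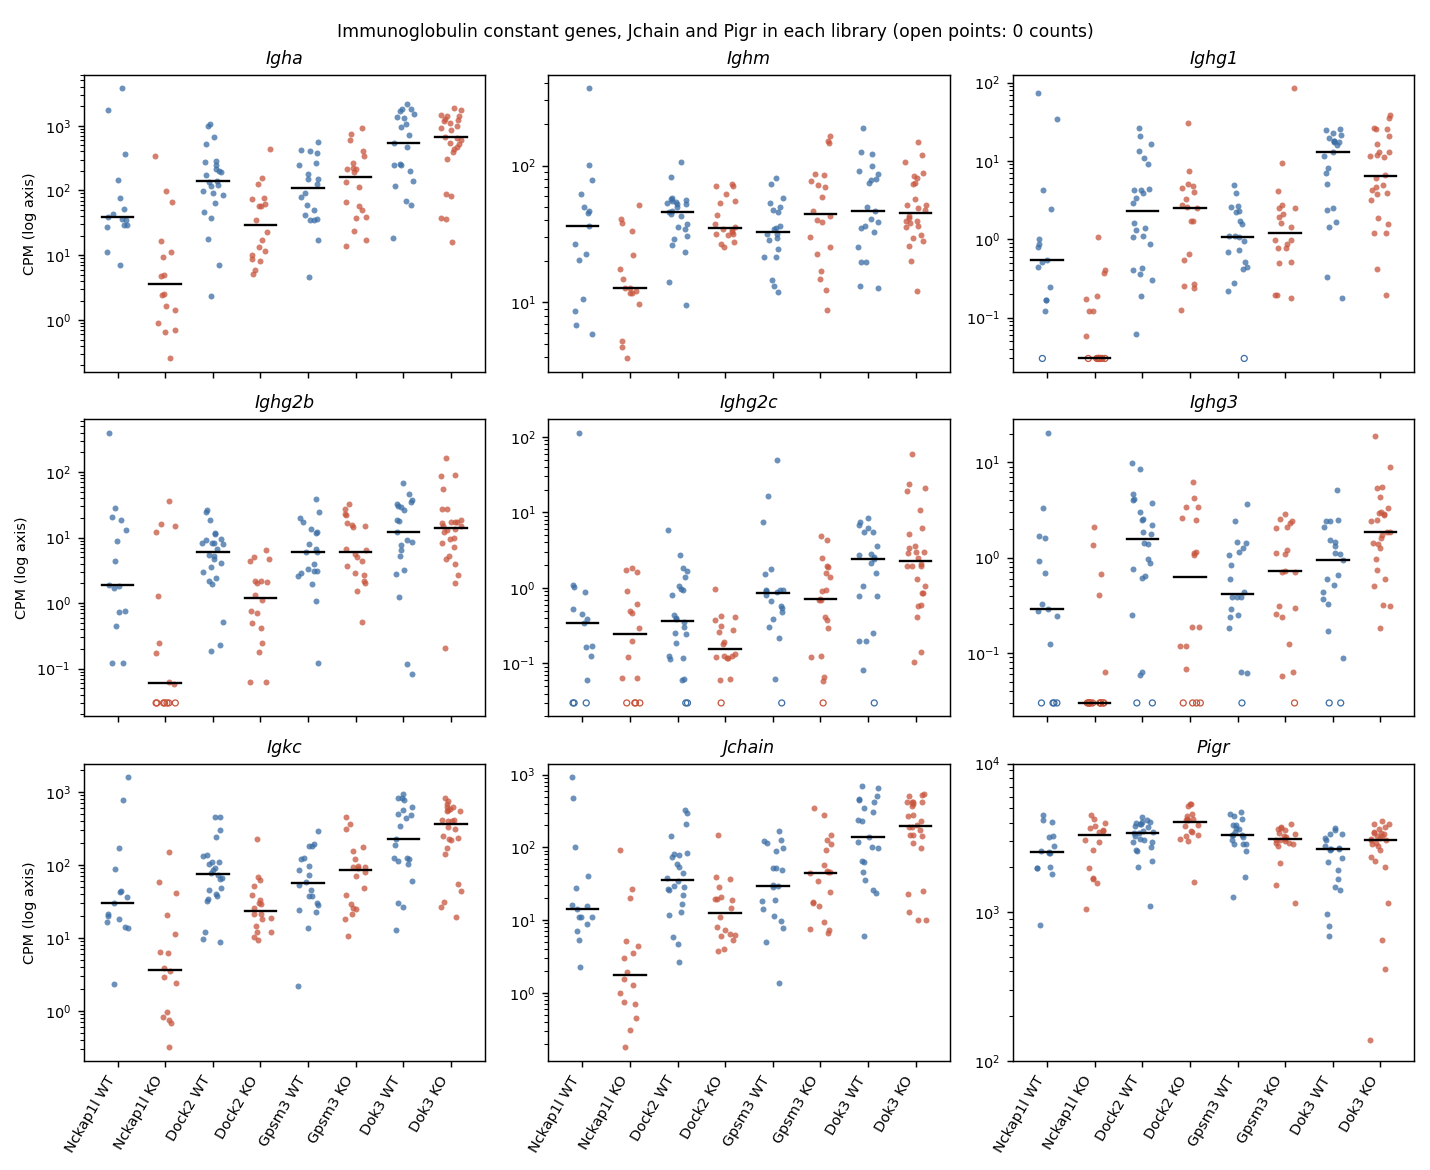
Level of each gene (CPM, log axis) in each library, by line and genotype. Points are libraries (blue WT, red KO), open points at the bottom are libraries with 0 counts, and black bars are group medians, drawn level with the open points where they are at or near 0. Igha, Igkc and Jchain shift together from group to group, while Ighm and Pigr spread far less.

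The plot of levels shows the same order of groups for the 2 other IgA components. Igkc had group medians of 30.3 (WT) and 3.69 CPM (KO) in the Nckap1l line, 75.1 and 23.8 CPM in the Dock2 line, 56.0 and 86.5 CPM in the Gpsm3 line and 225 and 369 CPM in the Dok3 line. Jchain had medians of 14.2 and 1.74 CPM, 36.0 and 12.7 CPM, 29.8 and 44.97 CPM, and 141 and 199 CPM in the same order. Within a library, Jchain CPM divided by Igha CPM had a group median between 0.286 and 0.374, and by library it ran from 0.158 (Nckap1l KO replicate 5) to 2.14 (Nckap1l KO replicate 13). The matching median for Igkc was between 0.462 and 0.802, with the highest value in Dock2 KO libraries.

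Ighm, the IgM heavy chain of naive B cells and of IgM plasma cells, was steadier. Its medians were 36.3 (WT) and 12.8 CPM (KO) in the Nckap1l line, 46.2 and 34.9 CPM in the Dock2 line, 32.9 and 44.6 CPM in the Gpsm3 line, and 46.8 and 45.4 CPM in the Dok3 line. The WT medians of the 4 lines thus lay within 32.9 to 46.8 CPM, where those of Igha lay between 38.4 and 533 CPM.

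The IgG genes were near the floor in many libraries. Ighg1 had 0 counts in 10 libraries, Ighg2b in 7, Ighg2c in 13 and Ighg3 in 25, and a count of 0 allows an expected level of up to 3 counts. In the Nckap1l KO group the medians of Ighg1 (0.0292 CPM), Ighg2b (0.0606 CPM) and Ighg3 (0 CPM) were all under the floor. Ighg2b had the highest IgG median in the Dock2 WT (6.09 CPM), Gpsm3 WT (6.02 CPM) and Dok3 KO libraries (14.1 CPM), and Ighg1 in the Dok3 WT libraries (13.1 CPM). The summed IgG genes made up a median of 3.65% to 6.27% of the heavy-chain counts per group, yet reached 60.7% in a single Nckap1l KO library.

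Pigr was the most abundant of the 9 genes and the least variable. Its WT and KO medians were 2559 and 3285 CPM (Nckap1l), 3411 and 4012 CPM (Dock2), 3319 and 3085 CPM (Gpsm3), and 2663 and 3078 CPM (Dok3). The lowest library of the series held 139 CPM (a Dok3 KO library) and the highest 5325 CPM (a Dock2 KO library).

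Per kilobase of annotated exon, which allows levels to be ranked between genes, Pigr stood first in WT libraries of every line (medians 636 to 848 CPM per kb) and Igkc second (56.99 to 422). In the Dok3 line the distance between these neighbours was small, with Pigr above Igkc in 12 of 21 WT libraries. Igha came next in the Dock2, Gpsm3 and Dok3 lines (51.9, 40.6 and 200 CPM per kb), above Ighm in 20 of 24 and 15 of 20 WT libraries of the Dock2 and Gpsm3 lines. In the Nckap1l line Ighm (19.3 CPM per kb) stood before Igha (14.4) by median, but in 7 of 15 libraries only, so these neighbours did not differ beyond their spread. Jchain followed and did not separate from Ighm in the Dock2 line (14 of 24 libraries) or the Gpsm3 line (11 of 20). The IgG genes closed the order in every line, and their order among themselves changed from line to line.

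**Figure D2:**
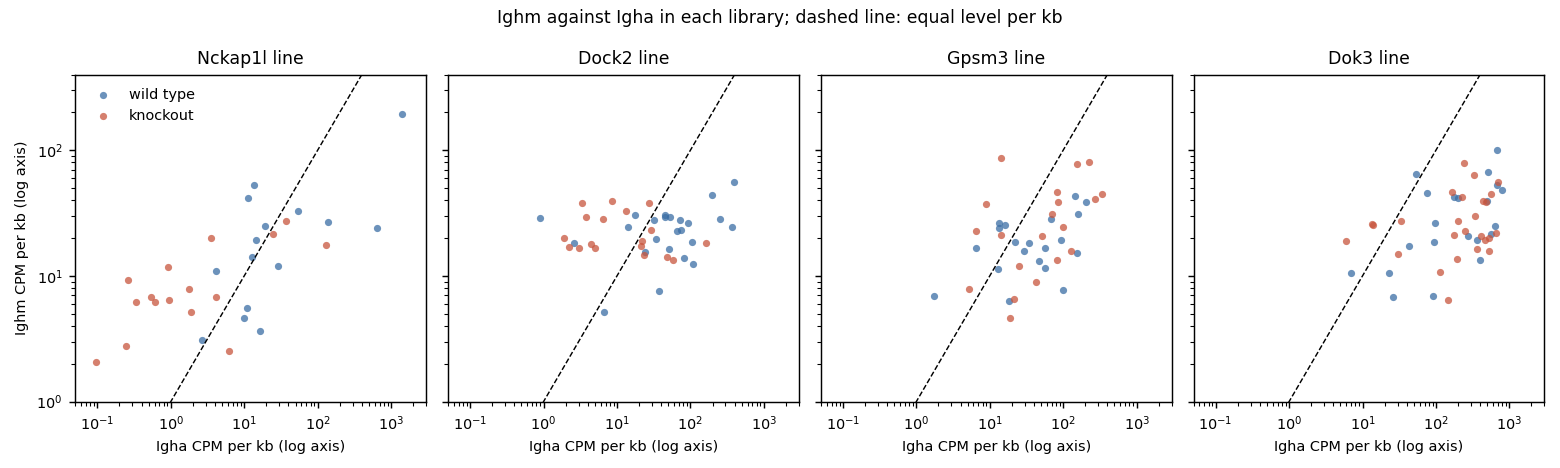
Ighm against Igha in each library, in CPM per kb of exon on log axes, for the 4 lines (blue WT, red KO). The dashed line marks equal levels, and libraries to its left held more Ighm than Igha per kb, 12 of 16 in the Nckap1l KO group and 11 of 18 in the Dock2 KO group.

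The plot of Ighm against Igha has libraries of every group on both sides of the dashed line. Per kb, Ighm exceeded Igha in 7 of 15 WT and 12 of 16 KO Nckap1l libraries and in 4 of 24 and 11 of 18 of the Dock2 line. It did so in 5 of 20 and 5 of 20 libraries of the Gpsm3 line and in 2 of 21 and 3 of 26 of the Dok3 line. By counts not divided by length, Ighm exceeded Igha in 3 WT and 12 KO Nckap1l libraries and in 4 and 10 of the Dock2 line. The same counts were 5 and 5 in the Gpsm3 line and 1 and 3 in the Dok3 line. Points spread along the Igha axis over a wider range than along the Ighm axis in all 4 panels.

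The share of the heavy-chain counts held by each gene compares the mix of antibody classes between genotypes, without library scaling. Where Ighm is steady the IgA share falls with the level of Igha, so shares and levels are not separate evidence. The IgA share (Igha as a percent of the counts of the 6 heavy-chain genes) was lower in the KO libraries of 2 lines. It was 29.3 ± 27.1% (SD, n = 16) in Nckap1l KO against 60.2 ± 23.3% (n = 15) in WT libraries, a difference of -30.9 percentage points (two-sided permutation test, p = 0.00245, adjusted p = 0.0147 over the 24 shares tested). It was 40.9 ± 26.02% (n = 18) in Dock2 KO against 66.9 ± 22.8% (n = 24) in WT libraries, a difference of -26.01 points (permutation p = 0.0015, adjusted p = 0.0147). The IgM share was higher by nearly the same amounts, 63.3% against 32.3% in the Nckap1l line (permutation p = 0.00233, adjusted p = 0.0147) and 52.7% against 26.6% in the Dock2 line (permutation p = 0.00142, adjusted p = 0.0147). Shares of a library sum to 100%, so these are not independent results.

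In the Gpsm3 line the IgA share was 65.6 ± 20.7% in WT and 66.1 ± 22.6% in KO libraries (permutation p = 0.942), and in the Dok3 line 81.9 ± 14.3% and 80.3 ± 19.3% (permutation p = 0.762). Neither difference passed the test. The knockout effect on the IgA share differed between the 4 lines (permutation of residuals, p = 0.00197, adjusted p = 0.0118 over 6 such tests). None of the 16 IgG shares passed after adjustment. The smallest was that of Ighg3 in the Dok3 line, 0.526% in KO against 0.165% in WT libraries (permutation p = 0.0118, adjusted p = 0.0565).

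Many of these libraries held few antibody counts. For Nckap1l 5 of 15 WT and 12 of 16 KO libraries held under 1000 heavy-chain counts, and in the Dock2 line 4 WT and 5 KO libraries did. Without them the difference was -8.75 points for Nckap1l (permutation p = 0.589) and -25.3 points for Dock2 (permutation p = 0.00088). Igha is itself part of that total (on average 60.2% of it in Nckap1l WT libraries), so the limit removes libraries by the level compared, and it leaves 4 Nckap1l KO libraries. The Nckap1l value therefore does not show what the difference rests on. Without WT replicate 8 the Nckap1l difference was -29.5 points (permutation p = 0.00466). Within runs of neighbouring sample numbers, the Nckap1l difference was -53.6 points in the first run (exact permutation p = 0.000666), 5.56 in the second (exact p = 0.794) and -35.7 in the third (exact p = 0.179). The runs did not differ after adjustment (permutation p = 0.0253, adjusted p = 0.0506). In the Dock2 line the difference was -41.8 points in males (permutation p = 0.00024) and -7.00 in females (exact permutation p = 0.563), and the sexes did not differ after adjustment either (permutation p = 0.0186, adjusted p = 0.0506). In the Nckap1l line it was -26.8 in males (exact permutation p = 0.0533) and -31.1 in females (exact p = 0.0929).

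**Figure D3:**
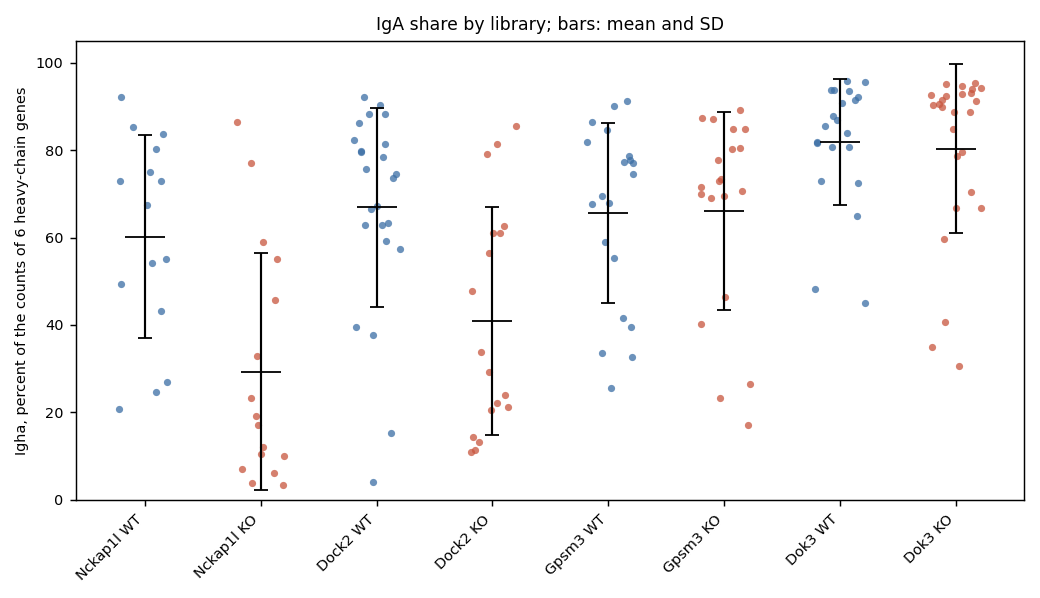
IgA share of the heavy-chain counts in each library (percent), by line and genotype. Points are libraries (blue WT, red KO) and bars the group mean and SD, 29.3 ± 27.1% and 40.9 ± 26.02% in the Nckap1l and Dock2 KO groups against 60.2 ± 23.3% and 66.9 ± 22.8% in their WT groups.

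The plot of IgA shares shows that the groups overlapped throughout, with Nckap1l KO libraries from 3.50% to 86.3% and Dock2 KO libraries from 11.0% to 85.5%. In bulk tissue, fewer cells of a type and less RNA per cell cannot be told apart. The summed B cell markers had lower KO medians in these lines and in the Dok3 line. Their summed level (13 genes) had a median of 14.6 CPM in Nckap1l KO libraries (range 9.64 to 171) against 78.3 CPM in WT (9.73 to 603), and 52.3 CPM in Dock2 KO libraries (26.1 to 142) against 110.7 CPM in WT (13.2 to 207). It was 121 CPM in Dok3 KO libraries against 135 CPM in WT, and 118 CPM in Gpsm3 KO libraries against 94.0 CPM in WT. No B cell marker was at 0 in most libraries of any group. Skin markers had wide ranges in the Nckap1l line (median 14.4 CPM in KO, range 8.04 to 9593, against 942 CPM in WT, range 8.19 to 6509), and striated muscle markers had medians of 164 CPM in KO and 111 CPM in WT libraries. The 8 smooth muscle markers summed to a median of 5576 CPM in Nckap1l KO libraries (range 2649 to 9731) against 8440 CPM in WT (3420 to 12651). In edgeR 8 of 8 lay below 0, with a median log2 change of -0.40, 6 of them under 0.05 before adjustment and 0 after. The part of any of these in the share was not tested, nor was that of the B cell or muscle markers in the Nckap1l levels. For skin, the levels of each line were also fitted with the skin score as a covariate, among the alternatives described at the end.

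Levels were next compared between KO and WT libraries of each line over all genes tested (edgeR's quasi-likelihood test, Benjamini-Hochberg adjusted p under 0.05). In the Nckap1l line 0 of the 6 members tested passed, against 0% of all genes (4.5% at an unadjusted p under 0.05). Ighm and Igkc were the 2 members under 0.05 before adjustment. Igha had a log2 change of -2.53 (SE 1.40, p = 0.0816), Igkc -2.53 (SE 1.23, p = 0.0481) and Jchain -2.50 (SE 1.25, p = 0.0546), all with an edgeR adjusted p of 1.00. Ighm had -1.52 (SE 0.577, p = 0.0131), Ighg2b -1.92 (p = 0.254) and Pigr 0.14 (p = 0.517), with the same edgeR adjusted p of 1.00. Ighg1, Ighg2c and Ighg3 were too low to be tested there. The median of the 6 was -2.21, beside 0.01 for all genes.

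The log2 changes of the 3 IgA components lay within -2.50 to -2.53, and none passed in edgeR. DESeq2 called Igha (-3.31), Jchain (-3.17) and Igkc (-2.96) lower, 3 of 6 against 0.117% of all genes, and limma-voom, the method of the study, called 0 (0% of all genes). Without WT replicate 8 the edgeR log2 changes were -2.33 for Igha, -2.30 for Igkc, -2.30 for Jchain and -1.15 for Ighm, and DESeq2 then called Jchain alone (-2.42), against 0.0887% of all genes.

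In the Dock2 line 0 of 8 members passed in edgeR, against 0.034% of all genes, and 5 of 8 were under 0.05 before adjustment, against 5.1%. Ighg2b had a log2 change of -1.98 (SE 0.477, p = 0.000155, adjusted p = 0.155). The IgA components had -2.10 for Igha (SE 0.555, p = 0.00048, adjusted p = 0.19), -1.65 for Igkc (SE 0.427, p = 0.00038, adjusted p = 0.185) and -1.80 for Jchain (SE 0.497, p = 0.000784, adjusted p = 0.23). These 4 genes pointed down together, while Ighm stood at -0.04 (SE 0.194, p = 0.846), Ighg1 at -0.53 and Ighg3 at -0.78. Pigr had 0.28 (SE 0.115, p = 0.018, adjusted p = 0.794), the opposite sign to its ligand's genes. DESeq2 called Igha (-2.11), Ighg2b (-1.99), Jchain (-1.81) and Igkc (-1.66) lower, 4 of 8 against 0.397% of all genes, and limma-voom called 0 (0% of all genes). With the skin score as a covariate edgeR called Ighg2b alone (-2.09), against 0.113% of all genes.

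**Figure D4:**
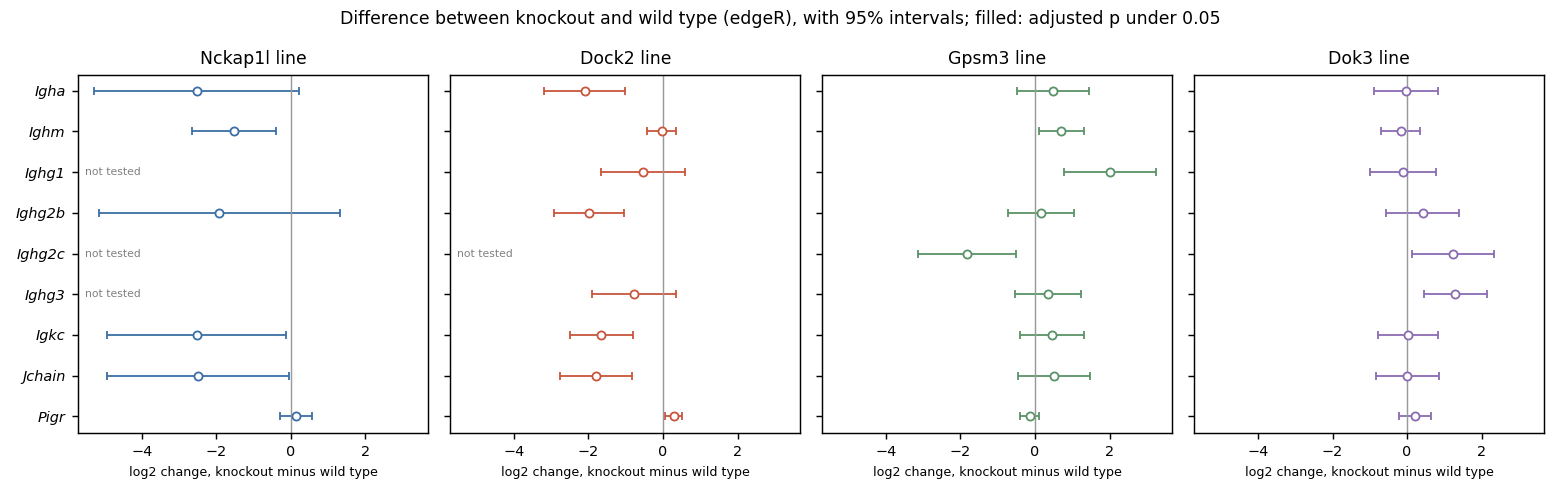
Log2 change between KO and WT libraries for each gene and line in edgeR's test. Points are estimates and bars 95% intervals taken from the standard error with the normal quantile, and no point is filled because no adjusted p was under 0.05. Igha, Igkc and Jchain sit at about -2.5 for Nckap1l, between -1.65 and -2.10 for Dock2, and at about 0 for Dok3.

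In the Gpsm3 line 0 of 9 members passed in edgeR, against 0.00569% of all genes, with 3 of 9 under 0.05 before adjustment against 4.86%. DESeq2 (0.0228% of all genes) and limma-voom (0.00569%) called 0 as well. Igha (0.49, 95% interval -0.48 to 1.45), Igkc (0.45) and Jchain (0.51) had small positive log2 changes within their error. Ighg1 had 2.01 (SE 0.635, p = 0.00286, adjusted p = 0.936), which fell to 0.30 (p = 0.488) without KO replicate 12, a library with 85.2 CPM. Ighg2c had -1.82 (SE 0.671, p = 0.00972, adjusted p = 0.936), with 49.2 and 16.5 CPM in 2 WT libraries against at most 4.89 CPM in the KO group. Ighm had 0.71 (SE 0.302, p = 0.0238, adjusted p = 0.936), and Pigr -0.14 (p = 0.277).

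In the Dok3 line 0 of 9 members passed in edgeR, against 0% of all genes, with 2 of 9 under 0.05 before adjustment against 2.19%. DESeq2 (0.017% of all genes) and limma-voom (0%) called 0 too. Igha had a log2 change of -0.03 (95% interval -0.89 to 0.83), Igkc 0.02 (-0.77 to 0.82) and Jchain 0.01 (-0.84 to 0.85), so the IgA components showed no direction in the libraries labelled Dok3 KO. Ighg3 had 1.298 (SE 0.435, p = 0.0045) and Ighg2c 1.23 (SE 0.561, p = 0.0333), both with an edgeR adjusted p of 1.00.

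The plot of KO differences sets the 4 lines side by side, and the difference of the effect itself was tested over all 160 libraries. It passed for 1 of 9 members, Ighg1 (edgeR adjusted p = 0.00942), against 0.539% of all genes. DESeq2 called 1 of 9 (0.358% of all genes) and limma-voom 0 (0.00504%). Without Gpsm3 KO replicate 12 edgeR called 0 of 9, against 0.443% of all genes. Before adjustment 8 of 9 members were under 0.05, against 5.4% of all genes, Pigr being the exception (p = 0.345).

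The genes that accompany antibody production were described by lists. Of the 13 B cell markers, 13 of 13 lay below 0 in the Nckap1l line and 13 of 13 were under 0.05 before adjustment, with a median of -2.21 beside 0.01 for all genes, but 0 passed in edgeR. In the Dock2 line 13 of 13 lay below 0 and 12 were under 0.05, with a median of -0.86 beside 0.00 for all genes. There Cr2, the complement receptor of mature B cells, passed with -1.53 (edgeR adjusted p = 0.0127). The list of 15 plasma cell genes, several of which serve the secretory pathway of epithelial cells too, had medians of -0.07 (Nckap1l) and -0.09 (Dock2). Its directions were mixed, and 8 of 13 tested genes (Nckap1l) and 9 of 14 (Dock2) had a log2 change below 0. The summed level of this list differed little, with medians of 769 CPM (KO) and 790 CPM (WT) for Nckap1l, and 667 and 674 CPM for Dock2. The genes named next are thus single members of a mixed list. Irf4, a transcription factor that plasma cells need, passed in the Dock2 line with -0.79 (edgeR adjusted p = 0.0403), and Mzb1, a chaperone of antibody assembly, had -1.43 (p = 0.00018, adjusted p = 0.155). Pou2af1, a coactivator at octamer sites of immunoglobulin promoters, had -3.04 for Nckap1l (p = 0.00721) and -0.90 for Dock2 (p = 0.000533). Both Cr2 and Irf4 had come up in earlier results of these data.

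The lambda constant gene Iglc2 had -2.37 for Nckap1l (p = 0.0291) and -0.59 for Dock2 (p = 0.0316), the same sign as Igkc. Tnfrsf13c, the BAFF receptor of B cells and a member of the list of IgA induction genes, had -2.26 (p = 0.0159) and -1.17 (p = 0.000254), both before adjustment. That list was mixed, with 9 of 14 genes below 0 in the Nckap1l line (median -0.41) and 8 of 13 in the Dock2 line (median -0.10). No gene of the lists for IgA induction, mucosal homing, Fc receptors, Pigr inducers or colonocytes passed in any line (edgeR). In the Nckap1l line 2 of 14, 1 of 9, 2 of 8, 0 of 12 and 0 of 10 of their tested genes were under 0.05 before adjustment, and in the Dock2 line 3 of 13, 1 of 9, 1 of 8, 2 of 12 and 0 of 10. Ccl28, the epithelial chemokine that draws IgA plasma cells, had 0.26 in the Dock2 line (p = 0.0224), a sign shared with Pigr. In the Gpsm3 line the B cell list had a median of 0.53 and the plasma cell list 0.15, and in the Dok3 line -0.15 and -0.09, with 0 genes passing in either line.

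Sex was tested in the 2 lines that held both. In edgeR 0 of 6 members differed in the Nckap1l line (0.178% of all genes) and 0 of 8 in the Dock2 line (9.75% of all genes), and 0 and 2 were under 0.05 before adjustment, against 15.7% and 25.6% (Igha 1.17, p = 0.0292, and Igkc 0.84, p = 0.0429, both with the female libraries higher). DESeq2 (1.07% and 12.2% of all genes) and limma-voom (0.123% and 9.07%) called 0 members in both lines. The KO effect did not differ with sex for any member after adjustment (edgeR, 0 of 6 against 0% of all genes and 0 of 8 against 0.198%, with the same 0 from limma-voom, against 0% in both lines, and from DESeq2, against 0% and 0.068%). Before adjustment 4 of 6 were under 0.05 in the Nckap1l line, against 3.29% of all genes, with WT replicate 8 among its 8 WT females (3 of 6 without that library, against 4.42%), and Ighm alone in the Dock2 line (-1.06, p = 0.00416), against 4.48%. In that line Ighm had a median of 53.3 CPM in WT females and 33.2 CPM in KO females, but 36.9 CPM in WT males and 45.6 CPM in KO males.

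Since DSS treatment was not labelled, the inflammation of each animal was read from a neutrophil score, the mean log2 CPM of 10 neutrophil genes, none of them a member. Their summed level ran from 22.3 to 9826 CPM. Each gene's slope on the score was fitted with genotype, sex and run of sample numbers as covariates. Pigr fell as the score rose in all 4 lines, with a log2 change per unit of -0.12 for Nckap1l (edgeR adjusted p = 0.0398), -0.12 for Dock2 (adjusted p = 0.000306), -0.10 for Gpsm3 (adjusted p = 0.00159) and -0.20 for Dok3 (adjusted p = 3.03e-05).

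By edgeR the IgA components fell with the score in the Dock2 and Gpsm3 lines. In the Dock2 line Igha had -0.49 (SE 0.118, adjusted p = 0.000567), Jchain -0.51 (adjusted p = 7.21e-05), Igkc -0.38 (adjusted p = 0.000702) and Ighg1 -0.54 (adjusted p = 0.00266), so that 5 of 8 members passed in edgeR against 55.7% of all genes. In the Gpsm3 line Igha had -0.36 (adjusted p = 0.00736), Jchain -0.43 (adjusted p = 0.00116) and Igkc -0.26 (adjusted p = 0.0283), 4 of 9 members against 55.3%. In the Dok3 line the same 3 genes had -0.12, -0.18 and -0.11 and did not pass, and 2 of 9 members did, Pigr and Ighg2c (0.23, adjusted p = 0.0226), against 63% of all genes in edgeR. In limma-voom Igha (-0.27, adjusted p = 0.0181), Jchain (-0.32, adjusted p = 0.00343), Igkc (-0.23, adjusted p = 0.0259), Ighg1 (-0.27, adjusted p = 0.0388) and Pigr (-0.26) passed in that line, 5 of 9 against 62.1%, and DESeq2 passed Jchain there (-0.18, adjusted p = 0.0360). In the Nckap1l line Igha stood at 0.03 and Ighm rose by 0.35 per unit (SE 0.103, edgeR adjusted p = 0.00662), 2 of 6 members passing against 46.1%. Without WT replicate 8 Jchain (-0.42, edgeR adjusted p = 0.0228) passed, Igha stood at -0.38 (adjusted p = 0.0670), Igkc at -0.27 (adjusted p = 0.114) and Ighm at 0.21 (adjusted p = 0.0194), 3 of 6 members passing against 48% of all genes.

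From 46.1% to 63% of all genes moved with this score, so the count of members called is near or below the background. The receptor fell in edgeR in all 4 lines. The slopes of the IgA components changed with the tool in the Dok3 line and with WT replicate 8 in the Nckap1l line, as given above. The Ighm slope, outside the Nckap1l line, was 0.05 (Dock2), 0.10 (Gpsm3) and 0.06 (Dok3) and did not pass.

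**Figure D5:**
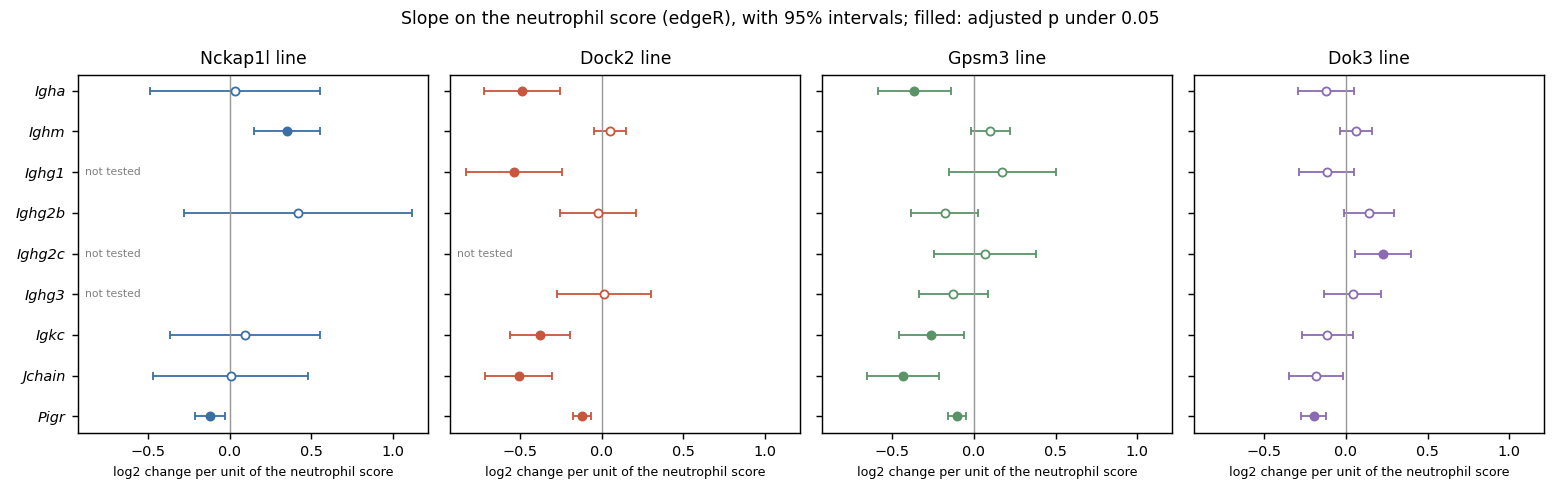
Slope of each gene on the neutrophil score (log2 change per unit of the score) in the 4 lines, from edgeR's fit with genotype, sex and run as covariates. Filled points have an adjusted p under 0.05 and bars are 95% intervals from the standard error with the normal quantile. Pigr is filled and negative in each panel, and Igha, Igkc and Jchain in the Dock2 and Gpsm3 panels.

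The plot of slopes can be read beside the lists. Of all genes 4228 of 17947 (Nckap1l), 5023 of 17648 (Dock2), 5006 of 17560 (Gpsm3) and 5723 of 17612 (Dok3) rose with the score. Those that fell were 4048, 4801, 4699 and 5375 (edgeR). Colonocyte markers fell with the score in 9, 4, 5 and 9 of 10 genes, in the same order of lines, and 1 rose in the Dock2 line. They were led by the water channel Aqp8, whose slope ran from -0.31 to -0.52. Pigr inducers, the cytokines, receptors and signalling genes known to raise Pigr in epithelial cells, rose in 9, 9, 9 and 11 of 12 genes tested, led by Il4ra with 0.36 to 0.42 per unit. Of the same inducers 0, 1, 1 and 1 fell. By these separate slopes the receptor fell with the score and most of its listed inducers rose. A relation between Pigr and its inducers was not tested. Fc receptor genes rose in 6, 5, 5 and 5 of 8, IgA induction genes in 10 of 14, 7 of 13, 9 of 12 and 8 of 13, and homing genes in 6, 5, 5 and 5 of 9. In every line 1 Fc receptor gene and 1 IgA induction gene fell, and 1, 3, 2 and 3 homing genes did. B cell markers rose in 10, 2, 11 and 1 of 13. Of the plasma cell list 7, 6, 6 and 7 genes rose, among them Prdm1 (0.27 to 0.33 per unit), and 0, 2, 1 and 1 fell. Tnfrsf17, the plasma cell survival receptor, fell by 0.33 in the Dok3 line (edgeR adjusted p = 5.50e-05). Skin markers rose with the score as well, in 6 of 10, 8 of 8, 5 of 5 and 8 of 8 genes tested. The part of skin RNA in the slopes was not tested.

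The Dok3 line stood apart in level. Among libraries labelled WT male, 6 of 9 members were higher in the Dok3 line (21 libraries) than in the mean of the Nckap1l, Dock2 and Gpsm3 lines (7, 12 and 20 libraries), against 8.97% of all genes called higher. The sex-linked genes did not match the label in 5 libraries of the whole Dok3 line, WT and KO together. Igha was higher by 2.45 on the log2 scale (SE 0.457, edgeR adjusted p = 6.34e-05), Jchain by 2.45 (adjusted p = 5.31e-05), Igkc by 2.22 (adjusted p = 6.56e-05) and Ighg1 by 2.60 (adjusted p = 3.69e-05). These are differences of more than 4-fold in both chains of IgA, in the joining chain and in Ighg1. Ighg2c was higher by 1.71 (adjusted p = 0.0289) and Ighm by 0.77 (adjusted p = 0.0303). Ighg2b (1.22, edgeR adjusted p = 0.0559), Ighg3 (0.03) and Pigr (-0.30, adjusted p = 0.182) did not pass. DESeq2 called 7 members (10.1% of all genes) and limma-voom 4 (7.41%).

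Markers of other cell types differed between these lines too. Of the B cell list 2 of 13 genes were called higher, with a median of 0.70, whereas the 9 members had a median of 1.71 and all genes one of 0.02. Of the T cell list 4 of 8 were called higher (7 of 8 under 0.05 before adjustment, median 0.60), and of the smooth muscle list 2 of 8 lower, with 8 of 8 below 0 and a median of -0.26. Plasma cell genes were higher in 6 of 15, with Mzb1 at 1.99 (edgeR adjusted p = 3.16e-05), Eaf2 at 1.24 and Irf4 at 1.15. Ccr10, the receptor for Ccl28 on IgA plasma cells, was higher by 0.67 (edgeR adjusted p = 0.00116), and Iglc2 by 2.01 (adjusted p = 3.35e-05). Colonocyte markers were lower in 2 of 10. Line, strain (129 against C57BL6/J), labelled DSS dose and run of samples coincide here, so they cannot be told apart. C57BL/6 mice carry Ighg2c where several other strains carry Ighg2a, and 129 reads of that gene were counted on a C57BL/6 reference, so the Ighg2c value of this contrast is uncertain.

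Within lines, libraries were compared with the group means removed, over 44 relations in all (Pearson's r on log2 CPM, permutation p). Igha and Jchain rose and fell together with r from 0.949 to 0.990 and Spearman's rho from 0.854 to 0.987 (31 to 47 libraries a line, permutation p = 1e-05 in each, the smallest that 100000 permutations give, adjusted p = 1.83e-05). Without the 2 libraries farthest from the median Igha, r was 0.920 to 0.990. Within runs and sexes it was 0.938 to 0.991. Igha and Igkc gave r of 0.924 to 0.992 and rho of 0.871 to 0.994 (permutation p = 1e-05 in each), and 0.885 to 0.993 without the 2 farthest libraries. The transcripts of alpha chain, kappa chain and joining chain thus ranked the libraries of a line in nearly the same order.

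Igha and Ighm were less tied. Their r was 0.646 in the Nckap1l line (rho 0.590, permutation p = 6e-05), 0.143 in the Dock2 line (rho 0.0374, permutation p = 0.368), 0.435 in the Gpsm3 line (rho 0.429, permutation p = 0.00504) and 0.399 in the Dok3 line (rho 0.410, permutation p = 0.00568). Without the 2 farthest libraries r was 0.537, 0.207, 0.333 and 0.359. Ighm instead followed the mean log2 level of the B cell markers, with r of 0.915, 0.674, 0.889 and 0.894 in the 4 lines (rho 0.930, 0.652, 0.873 and 0.928, permutation p = 1e-05 in each), and 0.899, 0.476, 0.873 and 0.875 without the 2 farthest. For Igha the same relation was 0.677, 0.297, 0.296 and 0.394 (rho 0.599, 0.220, 0.175 and 0.330, permutation p = 2e-05, 0.0554, 0.0637 and 0.00661). With the plasma cell list Igha gave 0.705, 0.460, 0.499 and 0.799 (rho 0.606, 0.372, 0.512 and 0.848) and Ighm 0.884, 0.460, 0.801 and 0.688 (rho 0.898, 0.387, 0.803 and 0.612).

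The IgG genes lay between. Igha with Ighg1 gave r of 0.786, 0.739, 0.566 and 0.821 (rho 0.725, 0.710, 0.502 and 0.756, permutation p from 1e-05 to 0.00012), and Igha with Ighg2b 0.712, 0.657, 0.680 and 0.706 (rho 0.648, 0.594, 0.666 and 0.597).

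Pigr was related to Igha and to the colonocyte markers. Igha with Pigr gave r of 0.303, 0.262, 0.348 and 0.617 (rho 0.360, 0.343, 0.351 and 0.335, permutation p = 0.0952, 0.0914, 0.0270 and 4e-05), and 0.295, 0.432, 0.307 and 0.497 without the 2 libraries farthest in the level of Igha. Pigr with the colonocyte markers gave r of 0.702, 0.548, 0.727 and 0.955 (rho 0.624, 0.405, 0.458 and 0.764, permutation p = 2e-05, 0.00111, 2e-05 and 1e-05). Without the 2 libraries farthest in the level of Pigr these were 0.617, 0.337, 0.493 and 0.927, so that in the Dock2 line the order of the 2 relations turned. The difference between them was not tested. Without WT replicate 8 of the Nckap1l line, r was 0.938 for Igha with Jchain, 0.908 with Igkc, 0.555 with Ighm, 0.733 with Ighg1, 0.649 with Ighg2b, 0.623 with the B cell markers, 0.629 with the plasma cell list and 0.283 with Pigr. It was 0.911 for Ighm with the B cell markers and 0.731 for Pigr with the colonocyte markers.

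The genes most like Igha were ranked among 14514 genes by the mean over the 4 lines of the same within-line r, as a description. Jchain (0.972) and Igkc (0.957) came first and second. Outside the members and the variable segments, the nearest were Mzb1 (0.829), Iglc2 (0.705), Pou2af1 (0.634), Ccr10 (0.616) and Tent5c (0.613), a poly(A) polymerase expressed in plasma cells. The 4 variable segments high enough to be ranked were all within the first 50. Ighg1 ranked 8 and Ighg2b 10, but Ighm ranked 567 and Pigr 856. The genes most like Pigr were Ccl28 (0.902), Bcl2l14 (0.892), Slc5a8 (0.882), a colonic short-chain fatty acid transporter, Sort1 (0.868) and Styk1 (0.863). Ccl28, the chemokine that attracts IgA plasma cells, thus stood first for the receptor that carries IgA.

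The promoters of Pigr and Jchain are shown because these genes are the 2 partners of IgA. The sequences are the 250 bases before each RefSeq start in GRCm38.p6, on the gene's own strand and 5′ to 3′, at chr1:130826434-130826683 (plus) for Pigr and chr5:88527898-88528147 (minus) for Jchain. Capitals mark the only matches to 3 motifs searched on both strands, CACGTG (an E-box), AANNGAAA (a core of interferon regulatory factor sites) and ATTTGCAT (the octamer of immunoglobulin promoters).
Pigr: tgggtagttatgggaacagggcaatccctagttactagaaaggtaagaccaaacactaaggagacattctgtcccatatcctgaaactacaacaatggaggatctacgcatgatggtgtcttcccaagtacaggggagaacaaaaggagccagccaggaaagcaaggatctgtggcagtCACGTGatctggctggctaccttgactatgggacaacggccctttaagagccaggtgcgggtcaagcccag
Jchain: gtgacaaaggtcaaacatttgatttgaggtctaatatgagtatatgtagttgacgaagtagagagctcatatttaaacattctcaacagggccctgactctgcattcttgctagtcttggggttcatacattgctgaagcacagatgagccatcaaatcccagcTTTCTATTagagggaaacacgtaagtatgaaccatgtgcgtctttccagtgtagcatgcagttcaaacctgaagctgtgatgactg
The Pigr match is CACGTG, beginning 71 bases before the start, a motif held by 6.02% of 32851 promoters of this length. The Jchain match is AANNGAAA on the opposite strand, 86 bases before the start, held by 21.3% of promoters. ATTTGCAT occurred in neither window and in 1.6% of promoters. A match is a description of letters and not of binding.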

How the data were processed

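RNA of 160 distal colon samples was sequenced (KAPA stranded, RiboErase). Per the submitters' notes the authors used STAR and mm10 for alignment and featureCounts of Subread for gene counts (versions not given in the sources used here), and deposited raw counts without normalization. Gene names and positions came from GENCODE for GRCm38 (37607 of 39179 IDs, 96.0%). Each line was fitted with edgeR 4.0.16 in R 4.3.3 (TMM, filterByExpr, quasi-likelihood test, with sex added where both sexes were present) and p-values were adjusted by Benjamini-Hochberg over all genes, with a threshold of 0.05. DESeq2 1.42.0 and limma-voom (limma 3.58.1) were alternatives. CPM of members and marker lists used totals of counts on genes scaled by TMM, and log2 CPM a prior count of 2. The detection floor and the CPM of the knocked-out genes used totals without TMM. Shares were compared by permutation (100000 resamples, or exact). Tests within a run or a sex used scipy 1.17.1, and the 24 main tests and those of differences between effects used numpy 2.4.6. The plan named 7 heavy-chain genes, of which 6 were matched, so 24 share tests were made. The scripts were tested on simulated data. Members, lists and tests were chosen with earlier results of these data known. Named genes were the members, up to 3 genes with the smallest p of each list in a comparison, and the 5 genes most like Igha and Pigr. Replicates are separate animals by their labels, the smallest chi-square per gene between any pair in a group was 4.00, and intervals cover sampling error only.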

Additional observations from a re-analysis of the deposited data

Results flagged for a closer look

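Single libraries stood apart from the others of their group and run by Dixon's test in 22 of 99 sets of 4 to 10 libraries, where chance flags about 1 in 20 sets, so the count is above that rate, although genes that move together are not independent sets. Nckap1l WT replicate 8 was the highest of its 8 libraries for 8 genes: Igha 3816 CPM (next 77.9 CPM), Ighm 369 CPM, Ighg1 34.6 CPM, Ighg2b 401 CPM, Ighg2c 114 CPM, Ighg3 20.5 CPM, Igkc 1608 CPM and Jchain 927 CPM. Dok3 KO replicate 25 was the lowest of 9 for Igha (37.1 CPM, next 395 CPM), Ighg1 (0.192 CPM), Igkc (31.7 CPM) and Jchain (12.8 CPM). Gpsm3 WT replicate 10 was the lowest of 10 for Igha (4.604 CPM) and Igkc (2.21 CPM), and replicate 14 the lowest for Pigr (1259 CPM). Gpsm3 KO replicate 12 was the highest of 10 for Ighg1 (85.2 CPM, next 2.72 CPM), and Gpsm3 WT replicate 2 the highest for Ighg2c (16.5 CPM). In Nckap1l KO libraries, replicate 11 was the lowest of 5 for Ighm (3.89 CPM), replicate 8 the lowest for Pigr (1048 CPM), replicate 14 the highest for Ighg1 (0.123 CPM, under the floor), replicate 13 the highest for Ighg2b (36.6 CPM) and replicate 16 the highest for Ighg3 (0.0637 CPM, under the floor).

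The KO effect differed between the 4 lines for Ighg1 (edgeR adjusted p = 0.00942) and for the IgA share (permutation of residuals, adjusted p = 0.0118). The Ighg1 difference was not called without Gpsm3 KO replicate 12.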

How the results depend on the processing

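Of 122 values that answer a comparison, 112 kept their direction and side of the threshold under the alternatives. Of 707 values for single members 666 did, 16 passed the threshold that had not, 4 no longer passed and 21 changed sign. DESeq2 called 4 members in the Dock2 line and 3 in the Nckap1l line, and 1 in the latter without WT replicate 8. The skin score as a covariate gave 1 in the Dock2 line. For the difference between lines limma-voom gave 0 and so did leaving out Gpsm3 KO replicate 12. For the neutrophil slope limma-voom gave 5 in the Dok3 line, and no filter on low counts gave 1 in the Nckap1l line. Without libraries under 1000 heavy-chain counts the IgA share differed by -8.75 points in the Nckap1l line (permutation p = 0.589) and by -0.54 in the Gpsm3 line, where the limit leaves fewer libraries and removes them by a total to which Igha adds. Signs turned for Ighm in the Dock2 line in males only (0.45). In the Dok3 line they turned for Igha with limma-voom (0.12), without libraries under 10000000 counts (0.0720) and without libraries whose sex markers differ from the label (0.0490). They also turned there for Pigr (-0.0308), Jchain (-0.28) and Igkc (-0.21) with the skin score and for Jchain with the neutrophil score (-0.00574). For female minus male in the Nckap1l line Ighg2b turned to -2.21 (DESeq2) and -0.46 (limma-voom). Slopes on the neutrophil score turned in that line for Jchain with DESeq2 (-0.00734), limma-voom (-0.0857) and library totals without TMM (-0.00371) and for Ighg2b with limma-voom (-0.0336). Without WT replicate 8 they turned for Jchain (-0.42), Igkc (-0.27), Igha (-0.38) and Ighg2b (-0.19). Limma-voom turned the slopes of Ighg2c (-0.0917) and Ighg1 (-0.0510) in the Gpsm3 line and of Ighg2b (-0.00389) in the Dok3 line. The cause was not tested. The skin score, the libraries left out by name or sex marker and the tests between runs, sexes and lines were chosen after seeing the data. No paired analysis was possible because the groups compared share no replicate numbers in the labels. Depth limits the IgG genes, which lay near the floor in many libraries.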
